A study of Mus musculus with 12 samples.

Results

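Solute carriers (SLC) are the large group of membrane proteins that move nutrients, ions, metabolites and drugs across membranes. Chromatin accessibility at their genes was read here in NIH/3T3 cells, an immortal line of mouse fibroblasts. The members are the genes whose listed symbol begins with Slc and a number, each read at the 1 region whose centre lies nearest its start site. This gave 209 genes of 12338 with a symbol in the table. Of these, 205 encode carriers, and 4 (Slc4a1ap, Slc7a6os, Slc9a3r1 and Slc9a3r2) are named after a carrier without being one. The rule uses no measured value, although transporters were picked as a subject with earlier results of these data known. The nearest region was centred within 500 bp of the start site for 145 members and over 2000 bp away for 26, and no region was listed for Slc11a2, the iron importer.

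The assay was ATAC-seq: a transposase inserts sequencing adapters into open DNA, and 3 libraries were read for each of 4 groups. Wild type (WT) cells carry an intact Actg1 gene, which encodes gamma-actin. The PTC1 line has 1 nt inserted after coding position 280 of Actg1, with an A-to-G change at that base on some copies, and has its premature stop codon in exon 3. The PTC2 line has 4036 nt inserted after position 1096 and meets its premature stop in exon 5, and the LD line lacks the whole Actg1 locus. All 4 groups share the NIH/3T3 background, and the mutants were made with CRISPR-Cas9 to ask how decay of a mutant mRNA bears on transcriptional adaptation. The labels name no separate clones, so each allele was taken as 1 line. The p-values therefore measure the spread between libraries, which may be technical, and not between lines.

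As background, solute carriers divide into families by sequence, and a family often shares a kind of cargo. Those at the cell surface set the uptake of glucose, amino acids, phosphate and vitamins and the release of lactate and iron. Others sit in mitochondria, the Golgi, endosomes or lysosomes. Several are used by nearly every cell, such as the glucose transporter Slc2a1, whereas others mark one tissue, such as Slc26a5, the motor protein prestin of cochlear hair cells. Open chromatin at a start site often accompanies transcription but does not measure it.

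A promoter window of 300 bases around the RefSeq start site was found for 161 members (RefSeq, GRCm38.p6), and in 122 of these the start site lay inside the measured region. The 4 windows below lie wholly inside the measured regions of genes that stood more than 1 log2 unit above or below WT in PTC1. They were chosen with these values known. Each is written 5′ to 3′ along the gene. Capitals mark the GC box letters GGGCGG and the AP-1 letters TGANTCA, on either strand. Slc16a10 (chr10:40142205-40142504, minus strand) and Slc22a4 (chr11:54028055-54028354, minus strand) were the more open in PTC1, and Slc37a2 (chr9:37255689-37255988, minus strand) and Slc9a9 (chr9:94669642-94669941, plus strand) the less open.
Slc16a10: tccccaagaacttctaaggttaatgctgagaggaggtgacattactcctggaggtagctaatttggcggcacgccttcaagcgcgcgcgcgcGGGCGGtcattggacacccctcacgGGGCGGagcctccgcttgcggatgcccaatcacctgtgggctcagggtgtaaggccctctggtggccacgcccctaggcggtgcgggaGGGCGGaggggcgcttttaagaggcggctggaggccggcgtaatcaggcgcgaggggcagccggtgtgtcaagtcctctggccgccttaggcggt
Slc22a4: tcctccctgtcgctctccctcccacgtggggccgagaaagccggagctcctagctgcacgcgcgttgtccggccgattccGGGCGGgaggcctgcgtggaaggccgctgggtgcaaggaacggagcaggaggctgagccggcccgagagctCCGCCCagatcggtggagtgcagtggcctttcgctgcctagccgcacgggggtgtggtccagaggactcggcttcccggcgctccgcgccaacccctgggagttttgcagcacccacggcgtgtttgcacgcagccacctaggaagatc
Slc37a2: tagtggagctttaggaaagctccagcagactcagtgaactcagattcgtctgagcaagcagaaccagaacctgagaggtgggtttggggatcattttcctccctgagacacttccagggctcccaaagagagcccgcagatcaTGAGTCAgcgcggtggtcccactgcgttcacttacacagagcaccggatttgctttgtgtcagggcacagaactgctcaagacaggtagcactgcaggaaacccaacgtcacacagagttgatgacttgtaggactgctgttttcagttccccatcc
Slc9a9: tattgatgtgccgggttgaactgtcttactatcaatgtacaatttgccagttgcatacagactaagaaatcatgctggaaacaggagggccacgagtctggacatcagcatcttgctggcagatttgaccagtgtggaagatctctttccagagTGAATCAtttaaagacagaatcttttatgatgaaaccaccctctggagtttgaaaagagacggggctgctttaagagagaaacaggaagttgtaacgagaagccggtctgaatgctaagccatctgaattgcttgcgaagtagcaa
The Slc16a10 window held 3 GC boxes and 26 CpG dinucleotides, and the Slc22a4 window 2 GC boxes and 29 CpG. The Slc37a2 window held 1 AP-1 match and 7 CpG, and the Slc9a9 window 1 AP-1 match and 6 CpG. This contrast between the 4 windows does not hold for all members. The windows of Slc27a3 (20 CpG) and Slc13a5 (17 CpG), which fell in PTC1, held a GC box and no AP-1 match. Across the 161 windows, GGGCGG was present in 113 (70.2%) and TGANTCA in 12 (7.45%), against 35.7% and 7.81% of all 32851 RefSeq windows of that length. That background includes non-coding genes and genes with no listed region. Whether open promoters of other genes differ from those of transporters was not tested. A match is a description of the letters and not evidence of a bound factor.

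The reads in regions behind the scaled values were estimated at 25.01 to 44.98 M per library. The scaled values summed to 31.29 to 34.8 M. Each library correlated best with one of its own group (highest Pearson's r over regions 0.983 to 0.987, against 0.875 to 0.933 with other groups). Of 12 fibroblast markers 11 had a region, with a median WT value of 1520, and their summed value was 16590 to 17428 in WT, 15739 to 16262 in PTC1, 17508 to 19042 in PTC2 and 16416 to 17599 in LD. Markers of epithelium (4 of 8 with a region), endothelium (5 of 7) and blood (3 of 7) had median WT values of 76.7, 145 and 126. The summed neural markers (5 of 7 with a region) were 1223 to 1322 in WT and 2239 to 2466 in PTC1, 1026 to 1175 in PTC2 and 1358 to 1493 in LD. Of the 5, Sox2 had means of 23 in WT and 1025 in PTC1, Syt1 32.7 and 464, Snap25 22.7 and 36.3, Gfap 214.7 and 265, and Nes, the largest in WT, 978.7 and 576.3. Their part in the results below was not tested. In pools of cells, fewer open cells and less signal per cell cannot be told apart.

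The WT cells showed how open the region nearest the start site was at each carrier gene in a fibroblast. Per kb of region, the highest WT normalized read counts were at Slc25a28, a mitochondrial iron importer (2957 per kb), Slc25a42, the mitochondrial coenzyme A carrier (2789), Slc2a1, the main glucose transporter of growing cells (2757), Slc19a2, a thiamine transporter (2602), and Slc25a4, an ADP/ATP carrier (2564). The Slc25a28 and Slc2a1 regions also hold a start site of another gene, as do the regions of 30 members in all, and the signal cannot be divided between them. At the other end stood the cardiac sodium-calcium exchanger Slc8a1 (20.4 per kb), the aromatic amino acid transporter Slc16a10 (20.5), the glutamine transporter Slc38a1 (20.6), Slc38a8 (25.6) and the melanosome protein Slc45a2 (31.9). The Slc8a1 and Slc38a8 regions are centred 841 and 1493 bp from the start site and do not hold the RefSeq start site. Of these low genes, Slc8a1, Slc16a10, Slc38a1 and Slc45a2 were among the largest rises in PTC1 described next. A region this low in WT may be listed only because another line is open there. It then has little room to do anything but rise, so this overlap is not read as a result. Over all 12 libraries the members' mean values ran from 8.08 to 5020, with a median of 959, and 177 members had a mean of 100 or more.

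Most members differed among the groups, as most of the genome did. With all 4 groups compared at once, 187 of 209 members (89.5%) passed the limma F test at a Benjamini-Hochberg adjusted p under 0.05, and 88.7% of all regions passed. In PTC1, 66 members rose and 61 fell against WT (60.8% of members), where 61.8% of all regions were called. In PTC2, 83 rose and 42 fell (59.8%), where 58.2% of regions were called. In LD, 43 rose and 60 fell (49.3%), where 47.4% of regions were called. Each share lies near its background, so the number of calls says nothing particular about transporters. By direction, 30.6% of all regions rose and 31.2% fell in PTC1, 28.4% and 29.8% in PTC2, and 22.6% and 24.7% in LD. Over all genes at their nearest region the shares were 33.3% and 28.5% (61.8% in all), 37.4% and 16.3% (53.8%), and 16.9% and 29.5% (46.4%), with 88.4% by the F test. The median log2 change of the members was 0.02 in PTC1, 0.10 in PTC2 and -0.02 in LD, beside 0.03, 0.10 and -0.05 over all genes read the same way. The balance of rises and falls moved with the scaling: in PTC2 it became 102 and 24 when libraries were scaled to the same median, and in LD it became 30 and 75 with that scaling and 72 and 36 with cyclic loess normalization.

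**Figure D1:**
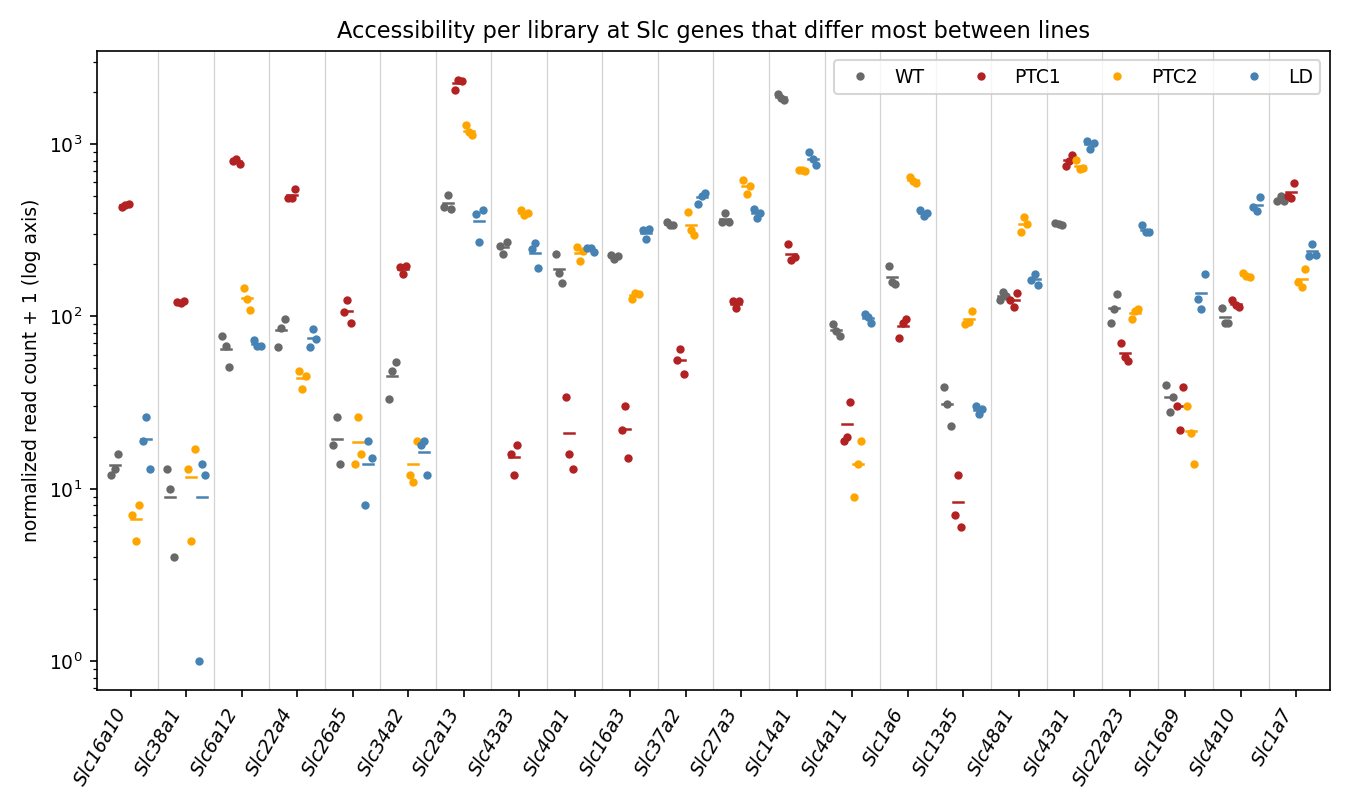
Normalized read count plus 1 (log axis) at 22 Slc regions, with 1 point per library, 3 libraries per group and a bar at each group's mean. Slc16a10 stands at 432 to 450 in PTC1 and at or under 25 in the other 9 libraries, and Slc43a3 at 11 to 17 in PTC1 and 190 or more elsewhere.

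The PTC1 line held the members that moved furthest. A stricter view counted genes whose 3 libraries of one group lay beyond all 9 others, with the group mean at least 1 log2 unit from each other group. In PTC1, 11 members stood above the rest (5.26%, where 2.66% of all genes did) and 10 stood below (4.79%, where 2.45% did). PTC2 had 3 members above (background 0.802%) and 2 below (1.43%). LD had 3 above (1.19%) and 0 below (0.754%), and WT had 1 above (0.219%) and 2 below (0.332%). At a called change of 1 log2 unit or more, PTC1 had 30 members against WT (14.4%, where 24.4% of regions and 10.4% of genes at their nearest region reached it), PTC2 22 (10.5%, where 22.6% and 7.76% did) and LD 14 (6.70%, where 13.3% and 5.7% did). At 0.5 or more, 29 members rose and 26 fell in PTC1 (where 44.6% of regions reached it), 30 and 19 in PTC2 (41.7%), and 23 and 21 in LD (31.7%). This cut was not counted over genes at their nearest region, so these shares of regions are not a like background. The median size of the log2 change in PTC1, PTC2 and LD was 0.24, 0.24 and 0.22 over members. Over all genes read the same way it was 0.25, 0.21 and 0.19.

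Of the transporters that opened in PTC1, Slc16a10 changed most. It carries tryptophan, tyrosine and phenylalanine out of cells, and its region (chr10:40141898-40142516, mm10) spans the start site. Its normalized read counts were 11, 12 and 15 in WT, 432, 440 and 450 in PTC1, 6, 4 and 7 in PTC2 and 18, 25 and 12 in LD. The 3 PTC1 libraries were far above the other 9, and the PTC2 libraries were the lowest, below every WT library. Against WT the log2 change was 5.02 in PTC1 (SE 0.29, 32.6-fold, limma adjusted p = 5.08e-15) and -1.05 in PTC2 (SE 0.29, adjusted p = 0.00267), and in LD it was 0.45 (adjusted p = 0.202). The regions within 1 Mb had median log2 changes of 0.11, -0.04 and 0.09, so the neighbourhood did not move with it.

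Slc38a1 and Slc6a12 also opened in PTC1. Slc38a1, a sodium-coupled glutamine transporter, read 12, 9 and 3 in WT, 120, 119 and 122 in PTC1, 12, 4 and 16 in PTC2 and 0, 13 and 11 in LD. Its PTC1 libraries did not overlap the others, and the log2 change was 3.92 (SE 0.63, limma adjusted p = 3.74e-06). A second region 1368 bp from the start site read 10, 19 and 15 in WT and 248, 235 and 269 in PTC1, with a log2 change of 4.05. Another Slc38a1 region, at 4557 bp, went the other way. It read 60, 60 and 65 in WT and 35, 49 and 29 in PTC1 (-0.73, limma adjusted p = 0.00606). The neighbour Slc38a2, another glutamine transporter 55.6 kb away, changed by 0.22, so the rise at Slc38a1 did not extend to it at that size. Slc6a12, which takes up betaine and GABA, read 76, 66 and 50 in WT, 796, 815 and 763 in PTC1, 145, 125 and 108 in PTC2 and 72, 66 and 66 in LD. PTC1 was above and PTC2 between PTC1 and the other groups, without overlap. The log2 changes were 3.63 in PTC1 (SE 0.15, adjusted p = 2.39e-18) and 0.98 in PTC2 (adjusted p = 2.11e-06), and 0.11 in LD (adjusted p = 0.588). This region lies inside the gene, 1181 bp from the start site, and a region at 2852 bp rose by 3.35 in PTC1.

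Slc22a4, Slc34a2 and Slc2a13 rose in PTC1 too. Slc22a4, the ergothioneine transporter, read 65, 85 and 96 in WT, 486, 486 and 550 in PTC1, 47, 37 and 44 in PTC2 and 65, 83 and 73 in LD. PTC1 was the highest and PTC2 the lowest group, each apart from WT, with log2 changes of 2.63 (SE 0.17, limma adjusted p = 3.94e-14) and -0.92 (adjusted p = 2.55e-05). Slc34a2, a sodium-phosphate cotransporter of lung and gut epithelium, read 32, 47 and 53 in WT, 193, 174 and 194 in PTC1, 11, 10 and 18 in PTC2 and 17, 18 and 11 in LD. It rose in PTC1 (2.09, SE 0.27) and fell in PTC2 (-1.70) and in LD (-1.46), with no overlap between WT and any mutant. Its region lies 4316 bp from the start site, inside the gene. Slc2a13, the proton-coupled myo-inositol transporter, read 430, 506 and 417 in WT, 2044, 2353 and 2329 in PTC1, 1290, 1167 and 1123 in PTC2 and 392, 268 and 411 in LD. The PTC groups were both above all WT libraries, with log2 changes of 2.31 and 1.40 (SE 0.11, adjusted p = 3.43e-17 and 3.19e-12). Its change in LD was -0.36, and the call rested on LD replicate 2 (-0.16 when it was left out, adjusted p = 0.145) and on WT replicate 2 (-0.27, adjusted p = 0.065).

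The remaining large rises in PTC1 were at genes known from other tissues. Prestin, Slc26a5, read 17, 25 and 13 in WT and 105, 123 and 91 in PTC1 (log2 change 2.51, limma adjusted p = 1.72e-07), with PTC2 and LD at 7 to 25. Slc45a2, a melanosome protein, read 16, 14 and 18 in WT and 134, 117 and 96 in PTC1 (2.77), and also rose in PTC2 (1.15). Slc8a1 rose by 3.11 from WT values of 2 to 9 to PTC1 values of 34 to 52, and regions within 1 Mb had a median change of 1.31. Its rise of 1.18 in LD was no longer called when WT replicate 2 was left out (0.77, adjusted p = 0.133), nor when LD replicate 3 was (1.03, adjusted p = 0.0729). Slc35g1 rose in all 3 mutants, from 38, 56 and 39 in WT to 160, 260 and 205 in PTC1 (2.20), with smaller rises in PTC2 (0.49) and LD (0.97). None of these regions exceeded a value of 260 in any library.

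Of the members that closed in PTC1, Slc43a3 fell furthest. It carries purine nucleobases, although its family otherwise holds amino acid transporters, and its region (chr2:84936447-84937073) covers the start site. It read 254, 230 and 269 in WT, 15, 11 and 17 in PTC1, 412, 388 and 395 in PTC2 and 244, 264 and 190 in LD. PTC1 lay far below and PTC2 above all other libraries. The log2 changes were -4.06 in PTC1 (SE 0.16, limma adjusted p = 4.37e-19) and 0.67 in PTC2 (adjusted p = 0.000555), and -0.12 in LD (adjusted p = 0.552). Another Slc43a3 region, inside the gene at 2138 bp, fell in all 3 mutants, in PTC2 opposite to the start site. Its log2 changes were -2.04, -2.89 and -1.46 (limma adjusted p = 7.94e-07, 1.48e-09 and 0.000172). Slc43a1, a neutral amino acid transporter 95.6 kb away, rose in all 3 mutants, so the paired genes moved apart in PTC1. It read 349, 343 and 339 in WT, 748, 797 and 865 in PTC1, 804, 714 and 720 in PTC2 and 1040, 934 and 1018 in LD (log2 changes 1.22, 1.11 and 1.53, SE 0.08). Its region also holds the start site of D930003E18Rik.

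Slc16a3 and Slc40a1 closed in PTC1. Slc16a3, which releases lactate from glycolytic cells, read 227, 215 and 224 in WT, 21, 29 and 14 in PTC1, 125, 136 and 133 in PTC2 and 315, 279 and 319 in LD. The 4 groups did not overlap, in the order PTC1, PTC2, WT and LD. The log2 changes were -3.38 in PTC1 (SE 0.18, limma adjusted p = 5.67e-16) and -0.75 in PTC2 (adjusted p = 0.000577). The LD change of 0.45 (adjusted p = 0.0365) was not stable: without any 1 of WT replicates 1, 2 or 3 or LD replicates 1 or 3 the adjusted p was 0.0661, 0.0941, 0.0732, 0.0976 or 0.107 (log2 changes 0.42 to 0.47). Slc40a1, ferroportin, the iron exporter, read 228, 177 and 156 in WT, 33, 15 and 12 in PTC1, 250, 209 and 237 in PTC2 and 247, 248 and 234 in LD. PTC1 was below all other libraries (-3.27, SE 0.22, adjusted p = 1.27e-13), and changes in PTC2 (0.32) and LD (0.39) did not pass the test. Both regions lie inside the gene, 2520 and 899 bp from the start site.

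The urea transporter Slc14a1 showed the largest loss of normalized read counts in PTC1 among the 209 members. It read 1958, 1844 and 1796 in WT, 261, 211 and 219 in PTC1, 702, 701 and 694 in PTC2 and 894, 819 and 750 in LD. Every mutant library was below every WT library, and PTC1 was the lowest. The log2 changes were -3.02, -1.41 and -1.19 (SE 0.08, limma adjusted p = 1.79e-22, 8.48e-15 and 9.73e-13). Regions within 1 Mb, on chromosome 18, had median changes of -0.55, -0.40 and -0.56, so part of the value lay in the neighbourhood. Slc37a2, which exchanges sugar phosphate for phosphate in the endoplasmic reticulum, read 353, 336 and 339 in WT, 55, 64 and 45 in PTC1, 404, 314 and 297 in PTC2 and 450, 501 and 517 in LD. It fell in PTC1 (-2.64, SE 0.13) and rose in LD (0.51, adjusted p = 0.00163), and PTC2 overlapped WT. The fatty acid transport protein Slc27a3 fell in PTC1 (-1.62) and rose in PTC2 (0.63), reading 350, 396 and 350 in WT, 121, 111 and 121 in PTC1 and 618, 510 and 568 in PTC2. The endosomal proton exchanger Slc9a9 fell in PTC1 (-1.21), at 137 to 147 against 288 to 360 in WT, and rose in LD (0.58), at 470 to 518. Another Slc9a9 region, at 1058 bp, had a WT mean of 38.7. It was not called in PTC1 (0.05, limma adjusted p = 0.866) or LD and rose in PTC2 (0.91, limma adjusted p = 0.00239).

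In PTC2, the largest rise was at Slc1a6, the glutamate transporter of Purkinje cells. Its region at the start site (chr10:78780066-78781095) read 194, 157 and 153 in WT, 74, 91 and 95 in PTC1, 642, 611 and 592 in PTC2 and 411, 383 and 394 in LD. The 4 groups were apart, with PTC2 highest and PTC1 lowest. The log2 changes were -0.95 in PTC1, 1.87 in PTC2 and 1.24 in LD (SE 0.12, limma adjusted p = 4.93e-08, 4.05e-14 and 6.13e-10). Regions of the gene at 2426 and 3347 bp rose in PTC2 by 3.02 and 2.65 and in LD by 2.12 and 2.47. In PTC1 these same regions rose by 0.70 and 0.66, opposite to the start site. Its relative Slc1a7, the glutamate transporter of retina, went the other way: it read 466, 495 and 465 in WT, 499, 483 and 590 in PTC1, 158, 146 and 187 in PTC2 and 224, 263 and 227 in LD. The PTC2 and LD groups lay below all WT and PTC1 libraries, with log2 changes of -1.54 and -1.00 (SE 0.11).

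Slc48a1, Slc52a3 and Slc13a5 also opened in PTC2. The haem transporter Slc48a1 read 124, 137 and 130 in WT, 123, 112 and 136 in PTC1, 309, 376 and 340 in PTC2 and 162, 176 and 151 in LD. PTC2 was above all others (log2 change 1.38, SE 0.13, limma adjusted p = 1.68e-10). A region of Slc48a1 at 1984 bp rose with it (1.49), one at 2833 bp fell (-1.15), and one at 5188 bp, the strongest, rose by 0.22. The riboflavin transporter Slc52a3 rose in PTC2 (1.34) and LD (0.77), from 74, 67 and 83 in WT to 207, 178 and 187 and to 150, 115 and 120. The citrate transporter Slc13a5 moved in opposite directions in the PTC lines, reading 38, 30 and 22 in WT, 6, 11 and 5 in PTC1, 89, 92 and 106 in PTC2 and 29, 26 and 28 in LD. Its log2 changes were -1.93 (adjusted p = 1.68e-06) and 1.67 (adjusted p = 1.66e-05), and its region holds a start site of 1700051A21Rik. The choline transporter-like gene Slc44a4 rose in both PTC lines (0.79 and 1.06), and the dopamine transporter Slc6a3 rose in PTC2 (1.72) and LD (1.00) at values of at most 29.

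Falls in PTC2 were led by Slc4a11, a bicarbonate transporter relative of the corneal endothelium. It read 89, 81 and 76 in WT, 18, 19 and 31 in PTC1, 8, 13 and 18 in PTC2 and 102, 98 and 90 in LD. Both PTC groups were below all WT and LD libraries, with log2 changes of -1.85 and -2.63 (SE 0.27, limma adjusted p = 7.61e-07 and 1.31e-09), and LD differed from WT by 0.24 (adjusted p = 0.491). Another Slc4a11 region, at 2991 bp, had a WT mean of 141. It fell in PTC2 (-0.84, limma adjusted p = 8.28e-05) and was not called in PTC1 (-0.25, limma adjusted p = 0.191) or LD. Slc25a21, a mitochondrial carrier of 2-oxo acids, also fell in both PTC lines, from 452, 459 and 448 in WT to 263, 253 and 174 and to 213, 202 and 235 (-1.00 and -1.06), with LD at 370 to 427 (-0.20, adjusted p = 0.179). The urate transporter Slc2a9 fell in all 3 mutants (-0.55, -0.87 and -0.51). The synaptic vesicle transporter Slc6a17 fell in PTC2 (-1.14) and LD (-0.69), at values of 96 or less. The cystine importer Slc7a11 fell in PTC2 (-0.62), to 210, 220 and 212 from 368, 290 and 336 in WT.

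In LD, the largest rise was at Slc4a10, a sodium-driven bicarbonate exchanger of neurons. It read 111, 91 and 91 in WT, 123, 116 and 112 in PTC1, 178, 170 and 167 in PTC2 and 431, 408 and 492 in LD. LD was above and PTC2 between LD and the other groups, without overlap, with log2 changes of 2.17 (SE 0.13, limma adjusted p = 2.17e-14) and 0.81 (adjusted p = 2.79e-06). Its region lies 5038 bp into the gene, and regions within 1 Mb had a median change of 0.65 in LD. Slc16a9, a carnitine transporter of the monocarboxylate family, read 39, 27 and 33 in WT, 29, 21 and 38 in PTC1, 29, 20 and 13 in PTC2 and 125, 109 and 175 in LD. The LD libraries were above the rest (2.00, SE 0.28, adjusted p = 8.74e-07). Slc22a23, a relative of the organic ion transporters, read 91, 109 and 134 in WT, 69, 57 and 54 in PTC1, 95, 107 and 109 in PTC2 and 339, 306 and 306 in LD (1.52, SE 0.16, adjusted p = 3.16e-09). Of the 3 genes, Slc22a23 had the least movement around it, with a local median of -0.05. The carnitine-acylcarnitine carrier Slc25a20 rose in LD (0.78, 558 to 582 against 293 to 379 in WT) and in PTC2 (0.48).

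**Figure D2:**
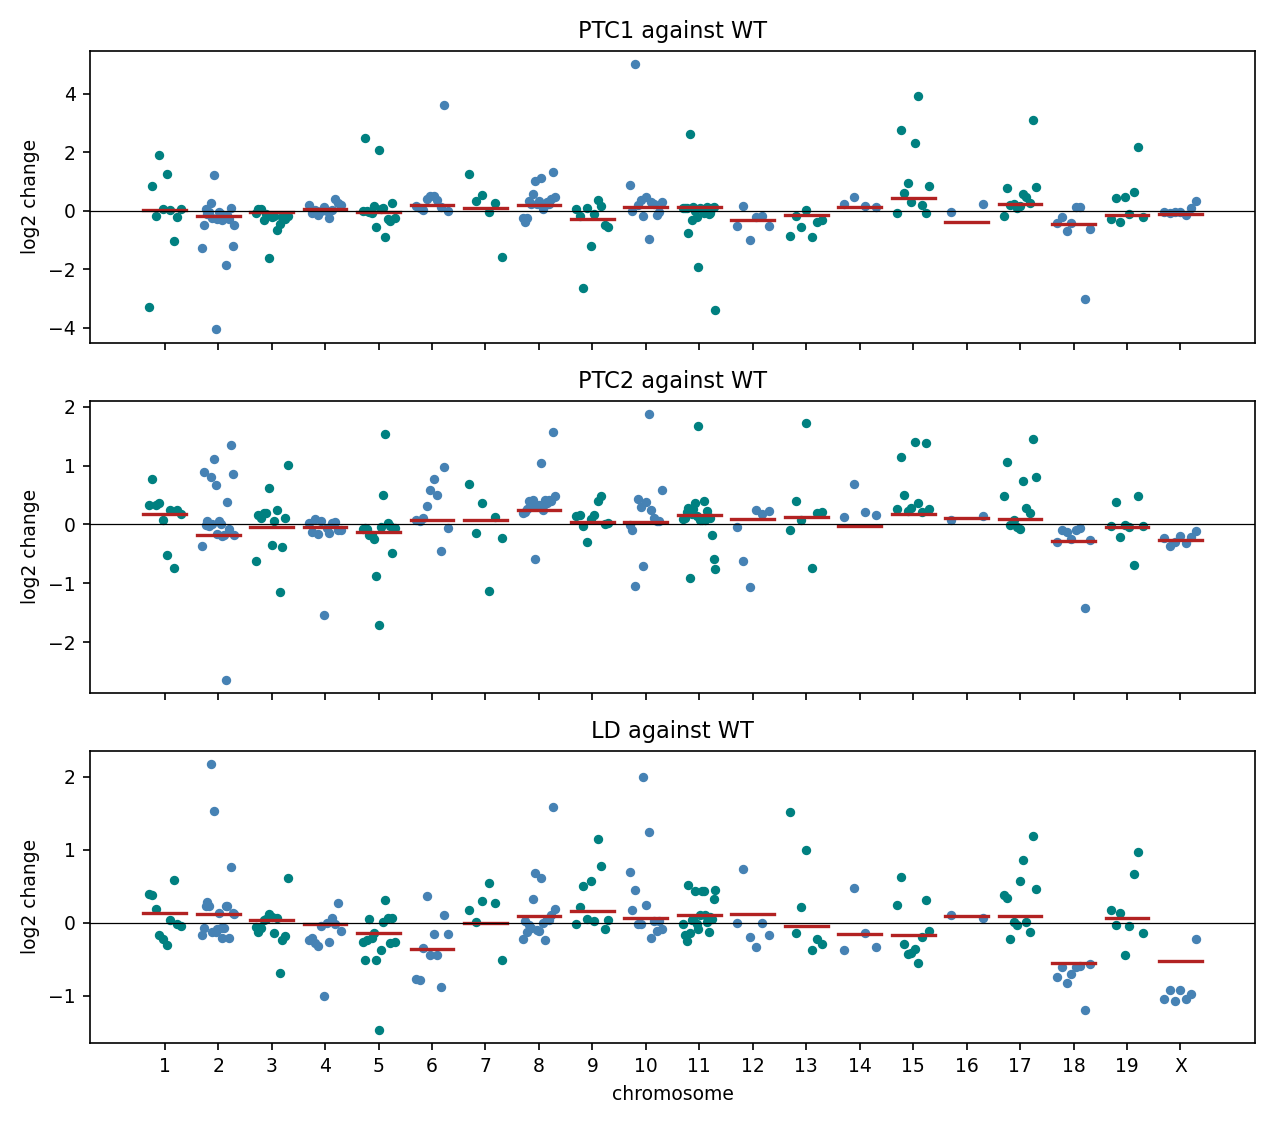
Log2 change against WT of each of the 209 Slc regions (points) by chromosome, in the 3 mutant lines, with a red bar at the median of all regions of the chromosome and point colours alternating between chromosomes. The vertical scales differ between panels. In LD the chromosome X members sit near -1 apart from Slc25a53, while in PTC1 single genes on chromosomes 10, 15, 2 and 11 stand far from their chromosome's bar.

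The share of members that fell in LD differed by chromosome, as it did for all genes. Falls outnumbered rises by 7 to 0 on X, 8 to 0 on chromosome 18, 8 to 0 on chromosome 5 (of 15 members), 6 to 0 on chromosome 6 (of 10), 6 to 0 on chromosome 4 (of 12), 5 to 2 on chromosome 15 (of 10) and 3 to 1 on chromosome 14 (of 4). Of all genes at their nearest region, 74.5% fell on X, 81% on 18, 54.7% on 5, 69.8% on 6, 33.8% on 4, 54.1% on 15 and 55.9% on 14. All 7 members on X were called lower in LD, with a median log2 change of -0.97, where the median over all X regions was -0.52. The creatine transporter Slc6a8 read 1726, 1865 and 1990 in WT and 922, 915 and 879 in LD (-1.04, SE 0.06, limma adjusted p = 6.18e-14), with PTC1 at 1663 to 1752 and PTC2 at 1395 to 1600. The UDP-galactose transporter Slc35a2 fell from 1413, 1393 and 1361 to 797, 654 and 590 (-1.04), and the ADP/ATP carrier Slc25a5 from 1037, 982 and 987 to 601, 536 and 462 (-0.92). Slc25a14 (-1.06) and Slc10a3 (-0.97) fell by like amounts. No LD library of these 5 genes overlapped WT. Around each of the 5, regions within 1 Mb had a median change of -0.90 to -0.92. Slc25a53 changed by -0.21 with a local median of -0.08, and its call was lost when WT replicate 2 was left out (-0.17, adjusted p = 0.0966), and likewise for LD replicate 2 (-0.17, adjusted p = 0.101) and, by a small margin, LD replicate 3 (-0.20, adjusted p = 0.0547). When the local median was subtracted, 0 of the 7 were called in LD by limma. Without the X members, 43 of 202 rose and 53 fell in LD. Copy number was not tested.

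On chromosome 18 all 8 members fell in LD (median -0.66, chromosome median -0.55), 6 fell in PTC1 and 4 in PTC2. There the chloride cotransporter Slc12a2 read 2690, 2725 and 2664 in WT, 1803, 2028 and 2288 in PTC1, 2412, 2158 and 2269 in PTC2 and 1800, 1525 and 1656 in LD. Each mutant lay below WT (-0.41, -0.24 and -0.70), and its PTC1 and PTC2 values turned slightly positive with local or chromosome centring. On chromosome 6, 6 of 10 members fell in LD and 0 rose (median -0.39, chromosome median -0.35), while 5 rose in PTC1 and 4 in PTC2. The magnesium transporter Slc41a3 read 1372, 1419 and 1347 in WT, 1939, 1955 and 2001 in PTC1, 2035, 2097 and 2062 in PTC2 and 1078, 951 and 1035 in LD. It was higher in both PTC lines (0.51 and 0.58) and lower in LD (-0.43), and local medians were 0.46, 0.47 and -0.32. On chromosome 15, 8 of 10 members rose in PTC1 and 9 in PTC2, with 0 falls, where the chromosome medians were 0.44 and 0.18. After local centring these counts became 5 rises and 4 falls in PTC1 and 5 rises and 0 falls in PTC2.

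**Figure D3:**
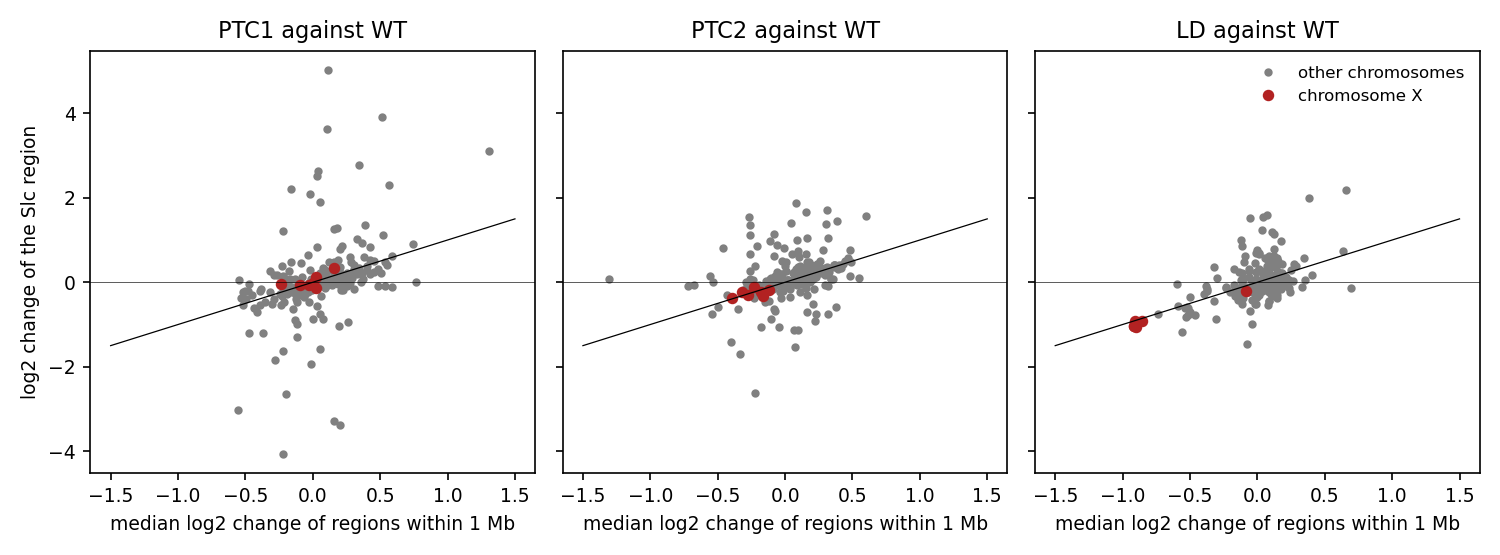
Log2 change of each Slc region against WT (vertical) and median log2 change of all regions within 1 Mb of it (horizontal), in the 3 mutant lines, with the line of equality and chromosome X members in red. Small changes lie along the line, the 6 X members at the lower left of the LD panel among them, while changes above 2 in size lie well off it.

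Subtracting the local median (the median log2 change of all regions within 1 Mb on each side) left part of the calls. Of the 127 members called in PTC1, 69 were still called in the same direction. Of 125 in PTC2, 67 were, and of 103 in LD, 65. Slc16a10, Slc38a1, Slc6a12, Slc22a4, Slc43a3, Slc40a1, Slc14a1 and Slc37a2 were among those that kept their PTC1 call. Slc16a3 kept its call in PTC1, and its PTC2 change became -0.21 (adjusted p = 0.323). Slc35d1, a nucleotide sugar transporter, showed the reverse pattern. It read 1890, 2082 and 2053 in WT and 1930 to 2275 in all mutant libraries, while regions within 1 Mb had median changes of 0.77, -1.30 and -0.60 in the PTC1, PTC2 and LD lines.

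Both PTC lines were set against LD to see which transporters separate lines that keep a mutant Actg1 gene from the line without the locus. The mean of PTC1 and PTC2 was higher than LD at 93 members and lower at 49 (67.9%, where 64.8% of all regions were called, 32.1% higher and 32.6% lower, and 67.0% of genes at their nearest region, 45.2% higher and 21.7% lower). At 0.5 or more the counts were 35 and 21 (44.2% of regions, not counted over genes at their nearest region). With libraries scaled to the same median the split was 114 and 35, and the median of all genes moved by 0.12, while with loess it was 73 and 70. Called changes of 1 log2 unit or more numbered 22 (where 22.3% of regions and 9.72% of genes at their nearest region had one, against 10.5% of members). Among members whose PTC and LD libraries did not overlap, the highest in the PTC lines were Slc2a13 (log2 difference 2.22) and Slc6a12 (2.20), and the next were Slc45a4 (1.01), Slc41a3 (0.98) and the X genes Slc10a3 (0.92), Slc25a14 (0.90) and Slc35a2 (0.90). Each of these 5 was called lower in LD than in WT. Those lowest in the PTC lines were Slc16a3 (-2.52), Slc4a11 (-2.48), Slc16a9 (-2.45), Slc22a23 (-2.00) and Slc37a2 (-1.85), each with limma adjusted p of 5.4e-10 or less. At Slc45a3, known as prostein, the lines fell on either side of WT: it read 436, 409 and 432 in WT, 204, 238 and 184 in PTC1, 247, 246 and 270 in PTC2 and 665, 610 and 640 in LD. Its log2 changes were -1.03, -0.74 and 0.58, and local medians were 0.14 to 0.23.

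Members that changed alike in both PTC lines were counted next. In all, 24 members rose in both PTC lines and were not called in LD (10.5% of all genes did), and 7 fell in both and were not called in LD (3.36%). A further 10 rose in both and fell in LD (5.17%). Apart from Slc6a12, Slc2a13, Slc45a2, Slc44a4 and Slc8a2, each of the 34 that rose in both changed by under 1 in both. The 3 comparisons share the WT libraries, and a member called in 1 line and not in another was not tested here for that difference. Against WT, 9 members rose in all 3 mutants (4.18% of all genes), Slc43a1 and Slc35g1 among them, 11 fell in all 3 (3.87%), Slc14a1 among them, and 24 were called in none (12.8%).

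The PTC lines differed from each other as much as from WT. PTC1 was higher than PTC2 at 47 members and lower at 74 (57.9%, where 62.5% of regions were called, 31.6% higher and 30.9% lower, and 54.3% of genes at their nearest region, 21.1% higher and 33.2% lower), with 35 and 97 after scaling to the same median and 70 and 65 with loess. Called differences of 1 log2 unit or more were found at 33 members (15.8%, where 27.7% of regions and 11.0% of genes at their nearest region had one). Differences of 0.5 or more numbered 27 and 35 (47.7% of regions, not counted over genes at their nearest region). They were led by Slc16a10 (6.08), Slc34a2 (3.79), Slc38a1 (3.55) and Slc22a4 (3.55) on the PTC1 side. On the PTC2 side stood Slc43a3 (-4.72), Slc13a5 (-3.60), Slc40a1 (-3.60) and Slc1a6 (-2.82). The neuronal chloride exporter Slc12a5 read 59, 58 and 64 in WT, 25, 32 and 21 in PTC1 and 126, 96 and 108 in PTC2, a difference of -2.05 with WT and LD (63 to 71) between the lines. The fatty acid transporter Slc27a1 read 1083, 1159 and 1118 in WT, 2332, 2197 and 2325 in PTC1, 797, 735 and 699 in PTC2 and 1826, 1795 and 1783 in LD. Its 4 groups did not overlap, and it was 1.62 higher in PTC1 than in PTC2 (limma adjusted p = 1.74e-19).

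**Figure D4:**
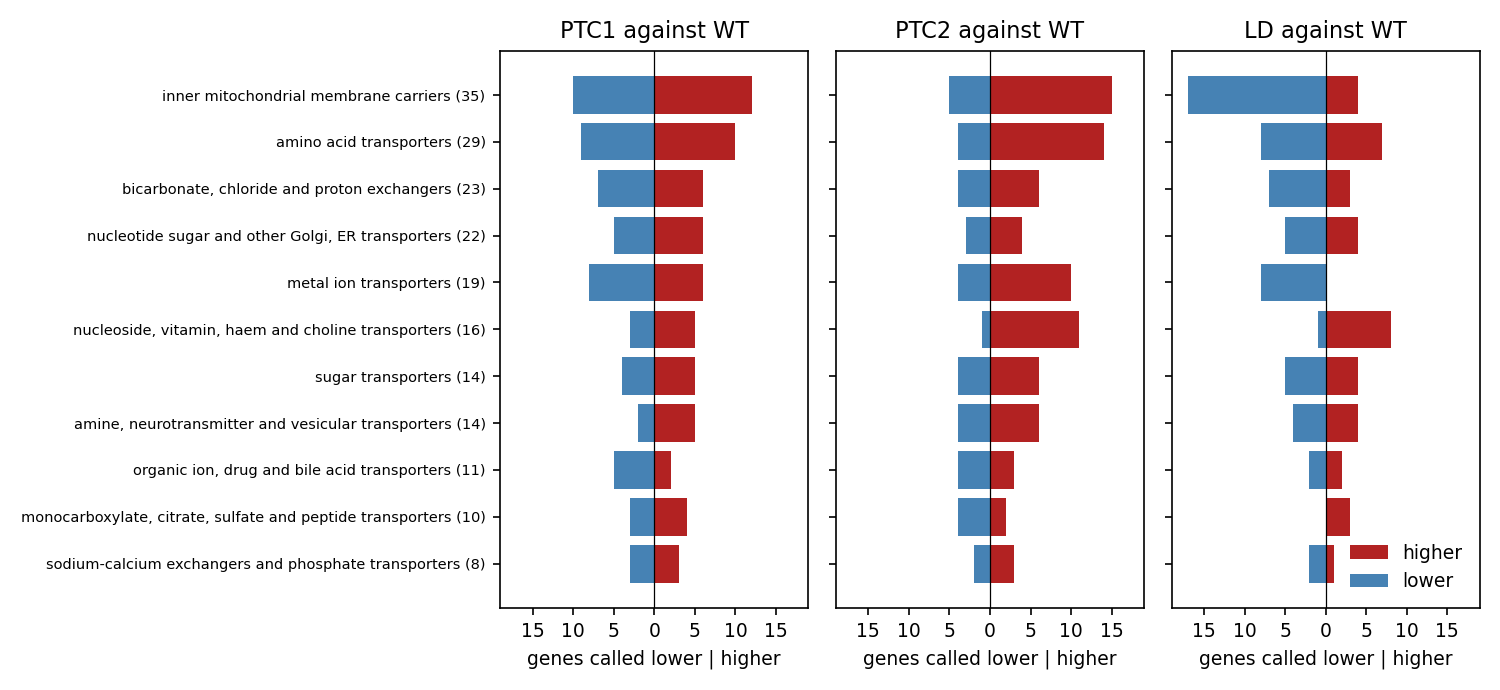
Number of members called higher (right, red) and lower (left, blue) than WT in each mutant line, by transport class, with the number of members in brackets. The 3 classes with fewer than 8 members are not drawn. Mitochondrial carriers show 17 falls in LD against 4 rises, and metal ion transporters 8 falls and 0 rises.

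The members were also grouped by cargo, a grouping by family number in which a few genes sit with a family whose name does not describe them (Slc43a3, Slc16a10, the iodide and vitamin carriers of family 5, and Slc25a17 of the peroxisome). Beside the counts stand the shares of all genes at their nearest region, given above: 33.3% rose and 28.5% fell in PTC1, 37.4% and 16.3% in PTC2, and 16.9% and 29.5% in LD. Of 35 mitochondrial carriers, 12 rose and 10 fell in PTC1, 15 rose and 5 fell in PTC2, and 4 rose and 17 fell in LD. With loess the LD count became 9 and 9, and 3 of the 17 falls were on X. Examples in LD were the aspartate-glutamate carrier Slc25a13 (-0.77) and the S-adenosylmethionine carrier Slc25a26 (-0.44). Of 29 amino acid transporters, 10 rose and 9 fell in PTC1, 14 rose and 4 fell in PTC2, and 7 rose and 8 fell in LD (12 and 4 with loess). Of 19 metal ion transporters, 6 rose and 8 fell in PTC1, 10 rose and 4 fell in PTC2, and 0 rose and 8 fell in LD, which became 4 and 4 with loess. The LD falls included the zinc transporter Slc39a6 (-0.75, on chromosome 18) and Slc41a3. Of 16 carriers of nucleosides, vitamins, haem and choline, 5 rose and 3 fell in PTC1, 11 rose and 1 fell in PTC2, and 8 rose and 1 fell in LD. With the same median these counts in PTC2 and LD were 12 and 1, and 4 and 1.

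The other classes had mixed calls. Of 23 bicarbonate, chloride and proton exchangers, 6 rose and 7 fell in PTC1, 6 rose and 4 fell in PTC2, and 3 rose and 7 fell in LD. Of 22 carriers of the Golgi and endoplasmic reticulum, 6 rose and 5 fell in PTC1, 4 rose and 3 fell in PTC2 and 4 rose and 5 fell in LD. In LD this became 10 and 3 with loess and 3 and 10 with the same median, which gave 9 and 0 in PTC2. Among 14 sugar transporters the counts were 5 and 4, 6 and 4, and 4 and 5. Among 14 amine and neurotransmitter transporters they were 5 and 2, 6 and 4, and 4 and 4. Of 10 monocarboxylate, citrate and peptide carriers, 4 changed by 1 log2 unit or more in PTC1: Slc16a10, Slc16a3, Slc13a5 and Slc16a14. The larger count changed sides under some settings. In PTC1 this held for exchangers (9 and 7) and metal ion transporters (7 and 6) with loess, and with local centring for Golgi carriers (3 and 5), amino acid transporters (8 and 9) and carriers of nucleosides and vitamins (4 and 5). With chromosome centring these 3 PTC1 counts were 3 and 7, 8 and 9, and 4 and 5. In PTC2 it held for Golgi carriers with loess (3 and 4), for sugar (2 and 4) and amine (5 and 6) transporters with local centring, and for organic ion transporters (3 and 4) with the same median (3 and 2). In LD it held for Golgi carriers with loess or local centring (6 and 3), amino acid transporters with loess, sugar transporters with loess (5 and 3) or chromosome centring (4 and 3), and sodium-calcium and phosphate transporters (1 and 2) with loess (2 and 1). No class was tested as a set.

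Of 19 listed transporters that most proliferating cells use, 15 changed by under 0.5 on the log2 scale in all 3 lines, as did 118 of all 209 members. The other 4 were Slc16a3 (-3.38 in PTC1), Slc25a5 (-0.92 in LD), Slc12a2 (-0.70 in LD) and Slc7a11 (-0.62 in PTC2), described above. By the limma test, 5 of the 19 rose and 7 fell in PTC1, 6 rose and 6 fell in PTC2, and 3 rose and 6 fell in LD. Slc3a2, the heavy chain that carries amino acid transporters to the surface, read 2213, 2198 and 2058 in WT and 1946 to 2240 in the mutants, and was called in none of them. Its region holds the start site of Snhg1. Another Slc3a2 region, at 5208 bp, fell in PTC2 (-0.87, limma adjusted p = 2.06e-08) and was not called in PTC1 or LD. The partner of Slc3a2, Slc7a5, which imports leucine, read 1441, 1502 and 1512 in WT, 1926, 2043 and 2270 in PTC1, 2158, 2023 and 2076 in PTC2 and 1809, 1719 and 1573 in LD. Slc7a5 rose in both PTC lines (0.48 and 0.49, SE 0.06, limma adjusted p = 9.91e-08 and 8.59e-08), near its local medians of 0.54 and 0.49, and its LD rise (0.19) was lost without LD replicate 1 (0.15, adjusted p = 0.0781). Slc2a1 read 2583, 2462 and 2432 in WT and 1998 to 2352 in the mutants, and was lower in each (-0.23, -0.15 and -0.26). Its PTC2 call was lost without WT replicate 1 (-0.13, adjusted p = 0.0798), PTC2 replicate 2 (-0.14, adjusted p = 0.0584) or PTC2 replicate 3 (-0.13, adjusted p = 0.0751).

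Others of the 15 were called at small changes. The glutamine transporter Slc1a5 rose in PTC1 (0.32), and the folate carrier Slc19a1 rose in all 3 lines (0.47, 0.37 and 0.24). Slc38a2 rose in both PTC lines (0.22 and 0.21) and fell in LD (-0.19). The phosphate importer Slc20a1 fell in PTC1 (-0.24). The zinc exporter Slc30a1 (0.18) and the zinc importer Slc39a1 (0.19) rose in PTC2, and the choline transporter Slc44a1 fell in LD (-0.28). The ADP/ATP carrier Slc25a4 fell in PTC1 (-0.24) and rose in PTC2 (0.26). The nucleoside transporter Slc29a1 was called in none of the 3 lines at its nearest region. Its other region, at 3998 bp, rose in PTC1 (0.30, limma adjusted p = 0.000149) and PTC2 (0.28, limma adjusted p = 0.000349) and was not called in LD. With loess the LD calls of Slc2a1, Slc38a2 and Slc44a1 were lost, and with local centring those of Slc1a5 and Slc2a1 in PTC1 and of Slc30a1 in PTC2. After local centring the sign turned for Slc38a2 in both PTC lines (-0.29 and -0.05) and for Slc20a1 (0.08) and Slc25a4 (0.28) in PTC1. Members steady at their nearest region included the glycine transporter Slc6a9 (range of the 4 group means 0.05 on the log2 scale), Slc43a2 (0.10), Slc3a2 (0.11) and Slc35d1 (0.11).

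**Figure D5:**
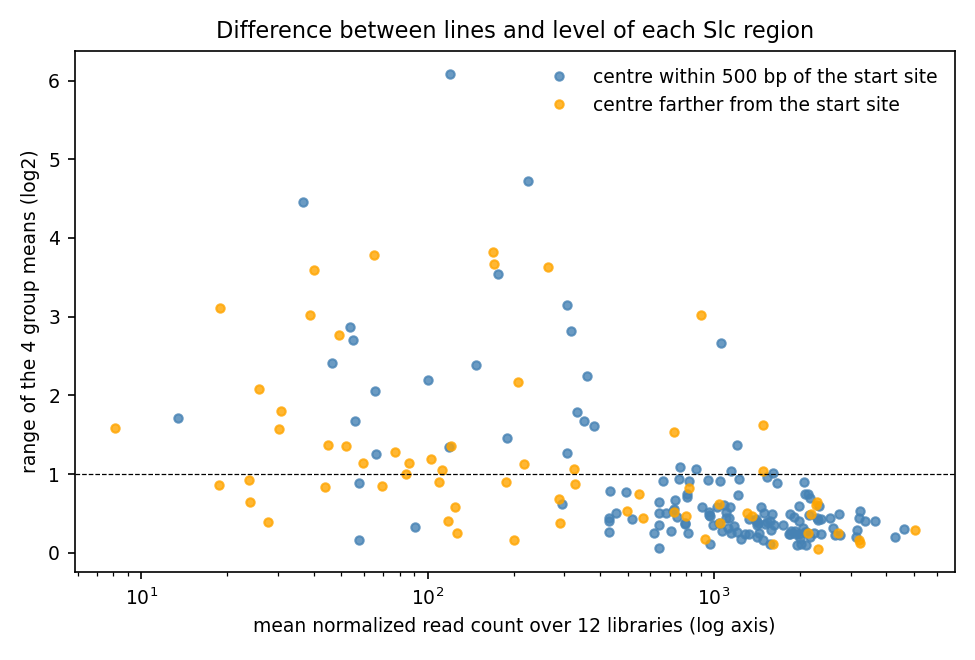
Range of the 4 group means of each Slc region (log2, vertical) against its mean normalized read count over 12 libraries (log axis), with regions centred within 500 bp of the start site in blue and farther ones in orange. The dashed line marks a range of 1, which 23 of 32 regions with a mean under 100 and 6 of 100 with a mean of 1000 or more reach.

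How far a member varied went with how open it was. The group means of 56 members (26.8%) spanned 1 log2 unit or more, where 21.5% of all genes did. Of 32 members with a mean under 100, 23 did so (71.9%), of 77 with a mean of 100 to 1000, 27 (35.1%), and of 100 with a mean of 1000 or more, 6. The 6 were Slc2a13, Slc27a1, Slc45a4, Slc35a2, Slc6a8 and Slc41a3. The part of counting noise in the range of low regions was not tested. Of members read within 500 bp of the start site 28 of 145 spanned 1 or more (19.3%), and of those read farther away 28 of 64 (43.8%). Across the 122 members with the RefSeq start site inside the region, Spearman's rho between the range and the mean value was -0.59, and between the range and the count of CpG in the promoter window -0.20. Both are descriptions across genes that share the same 12 libraries.

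Promoters rich in CpG were common among the members. The median window with its start site in the region held 21 CpG, where the median of all RefSeq windows, non-coding genes included, was 7. The RefSeq windows were not limited to open promoters, so this difference is not shown to be particular to transporters. Of 9 members with under 10 CpG, 3 spanned 1 log2 unit or more (33.3%), Slc37a2 and Slc9a9 among them. Of 24 members with 30 CpG or more, 2 did (8.33%). Slc16a10 and Slc22a4, shown above, were among 9 of 43 members with 20 to 29 CpG that did (20.9%). The WT value rose with CpG in these windows (Spearman's rho 0.31, n = 122).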

How the data were processed

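Chromatin accessibility was measured by ATAC-seq on 25000 NIH/3T3 cells per sample, in 12 samples (3 per group). The authors deposited 1 table of 81995 regions, with a normalized read count (a score: read counts scaled by 1 factor per sample and rounded, from the values), a distance to the nearest start site and, for each region, the fraction of overlap with a gene. Without giving roles, the submitters' processing notes list mm10, DESeq2 1.30.1, STAR 2.7.10a, Trimmomatic 0.39 and Picard 2.25.5. The peak caller was not given in the sources used here, nor was any shift of reads for the transposase.

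Because the values are not raw counts, no count model was used. Values were taken as log2(value + 1), and 81985 regions with a mean of at least 5 were fitted in limma 3.58.1 (R 4.3.3, moderated test with a mean trend) over all 12 libraries, so that the groups share 1 estimate of spread, with Benjamini-Hochberg adjustment over all tested regions and a threshold of 0.05. Fold changes are on the log2(value + 1) scale, which understates changes of low regions. The 10 regions below the mean were left out, and all 209 members passed. No genome was used. Start sites and promoter sequences came from RefSeq tables for GRCm38.p6, the assembly of mm10.

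Genes named are those with the largest called changes whose libraries do not overlap and whose higher group has a mean of at least 20, the steadiest, those highest and lowest in WT, chromosome X members, and a list of carriers that most cells use. Slc8a2, Slc16a14, Slc25a17 and Slc39a6 were named after their values were seen, and some genes that the rule names are not reported here. The members and lists were chosen with earlier results of these data known. Alternatives were another pseudocount, other low filters, scaling to the same median, cyclic loess, centring by chromosome or by neighbourhood, each library left out, and the replicate number as a block. The fit was tested on simulated data. Intervals and tests cover the spread between libraries. The precision of single values is limited by scaled counts of unknown raw depth.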

Additional observations from a re-analysis of the deposited data

How the results depend on the processing

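At a log2 change of at least 0.5 the rises and falls numbered 29 and 26 for PTC1, 30 and 19 for PTC2, 23 and 21 for LD, 35 and 21 for the PTC mean against LD, and 27 and 35 for PTC1 against PTC2. Within 500 bp of the start site, rises numbered 41 in PTC1 and 26 in LD, and 28 for PTC1 against PTC2. Scaling to the same median left 24 falls in PTC2, and loess gave 72 rises and 36 falls in LD. Leaving out 1 library at a time gave 63 to 69 rises and 54 to 61 falls for PTC1, 76 to 84 and 34 to 43 for PTC2, 37 to 44 and 52 to 67 for LD, 80 to 94 and 44 to 51 for the PTC mean against LD, 38 to 50 and 66 to 77 for PTC1 against PTC2, and 184 to 188 members with the F test.

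The replicate numbers are shared by the groups but did not pair the samples: deviations from the group means correlated by -0.00443 to 0.0447 over 18 same-numbered pairs and -0.0396 to 0.0222 over 36 others. With the replicate block, rises and falls were 68 and 60 for PTC1, 84 and 42 for PTC2, 45 and 60 for LD, 94 and 50 for the PTC mean against LD and 48 and 74 for PTC1 against PTC2, with 187 by the F test. Of 216 single-gene values the block changed 1 call, Slc29a1 in PTC1 (0.11, limma adjusted p = 0.0462).

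Signs were compared only for values called in the main fit or under the setting. Among these, signs turned with chromosome centring, local centring and loess. Sign changes of values called in neither are not listed. With chromosome centring the log2 change became 0.0491 at Slc10a3, 0.0343 at Slc12a2, 0.00337 at Slc20a1 and 0.034 at Slc35a2 in PTC2, 0.0441 at Slc12a2, -0.13 at Slc29a1 and -0.23 at Slc38a2 in PTC1, and 0.31 at Slc25a53 in LD. With local centring, PTC1 values became 0.0856 at Slc12a2, 0.21 at Slc16a1, 0.19 at Slc19a2, 0.0757 at Slc20a1, 0.20 at Slc25a14, 0.28 at Slc25a4, -0.10 at Slc25a42, -0.19 at Slc29a1, -0.29 at Slc38a2 and -0.0565 at Slc7a5. PTC2 values became 0.0392 at Slc12a2, 0.12 at Slc20a1, -0.0876 at Slc25a42, 0.0217 at Slc25a5, 0.0866 at Slc35a2, -0.047 at Slc38a2 and -0.27 at Slc43a2, and LD became 0.55 at Slc35d1. With loess, LD values became 0.15 at Slc19a2, 0.0519 at Slc25a28, 0.11 at Slc25a42, 0.14 at Slc29a1, 0.12 at Slc30a1 and 0.15 at Slc6a9. The cause was not tested. A pseudocount of 10 and no low filter changed none of the 216 calls. Of 164 called values, 10 were no longer called with the same median, 12 with loess, 27 with chromosome centring and 36 with local centring, and a further 2 and 4 were called in the other direction with those centrings. Slc16a3 in LD lost its call under each of the 4. The size of small changes is limited by the scaling. The main fit kept the scaling of the authors' values, and the same median and loess settings rescaled on top of it.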

Other observations

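Members with more than 1 listed region allowed a second reading of the same gene. The table held 64 other regions at 50 members. In PTC1, 20 of these rose and 19 fell, and at 24 of the 28 whose gene was also called at its nearest region the direction was the same. In PTC2, 22 rose and 22 fell, with the same direction at 26 of 29, and in LD 9 rose and 18 fell, with 13 of 17. Regions of 1 gene share libraries and neighbourhood, so they are not independent. Slc12a9 was an exception in size. A region 4968 bp from its start site read 144, 129 and 125 in WT, 3, 4 and 12 in PTC1, 173, 131 and 187 in PTC2 and 111, 96 and 123 in LD. PTC1 lay far below the other libraries there, with a log2 change of -4.39 (limma adjusted p = 3.41e-14).

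Members that lie close together did not always move together. Of members next to each other on a chromosome, 15 pairs lay within 200 kb. Slc22a4 and Slc22a21 lie 47.4 kb apart, and in PTC1 their log2 changes were 2.63 and -0.74. Slc22a21 is a carnitine transporter relative of Slc22a4.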
